A study of Homo sapiens with 8 samples.

Results

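The genes described here make fatty acids, assemble them into triglyceride, and store or release that triglyceride at lipid droplets. A list of 33 gene symbols, chosen with earlier results of these data known, was matched to the arrays. A gene was read from the probe set that the platform annotation pairs with its symbol alone, taking the brightest such probe set over the 8 arrays. This left 31 genes of 19775 measured in all. ELOVL1 and FADS1 had no probe set of their own, since theirs are annotated together with the microRNAs MIR6734 and MIR1908. Of the 31 genes, 23 had several probe sets and 8 had 1.

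Transcript levels were measured in Huh7 and Hep-3B, established human hepatoma lines that carried a lentiviral short hairpin RNA (shRNA, which directs the destruction of a matching transcript). The 4 groups were Huh7 with a hairpin against KLHL23 (Huh7-shKLHL23), Huh7 with a hairpin against luciferase (Huh7-shLuc), Hep-3B with the KLHL23 hairpin (Hep-3B-shKLHL23) and Hep-3B with the luciferase hairpin (Hep-3B-shLuc). Each had 2 arrays, numbered 1 and 3 in the labels, and n = 2 per group holds throughout. All groups were grown in medium with 10% serum, transduced at a multiplicity of infection of 2 and put under puromycin after 48 hours, so the controls were infected and drug-selected too. The protocol also names a virus called shEV, and no array analysed here is labelled with it: all 4 control arrays are labelled shLuc. Luciferase is a gene that human cells lack, and KLHL23 belongs to the Kelch-like family of proteins, many of which bring substrates to a ubiquitin ligase. The labels name a single KLHL23 hairpin, so loss of KLHL23 and effects of that hairpin on other transcripts cannot be told apart, and they do not say whether the arrays of a group came from separate cultures. The p-values therefore measure the spread between these samples only, which may be technical.

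Liver cells build fatty acids from cytosolic acetyl-CoA, which carboxylases turn into malonyl-CoA and fatty acid synthase extends into palmitate. Elongases and desaturases then lengthen and unsaturate the chain, and acyltransferases attach the products to glycerol to form triglyceride. Triglyceride collects in lipid droplets, whose surface carries perilipins and CIDE proteins, and lipases at that surface free the fatty acids again. The transcription factors SREBP-1 (encoded by SREBF1) and ChREBP (encoded by MLXIPL) drive many of these genes in liver in response to insulin and sugar.

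Of the 31 genes, the 5 with the largest called knockdown differences were G0S2, ANGPTL8, CIDEB, PLIN3 and PLIN2, and the 250 bases upstream of their transcription starts are printed so that the differences can be set beside the sequence. They come from RefSeq on build GRCh38.p14 and run 5′ to 3′ on the gene's own strand: G0S2 at chr1:209675162-209675411 on the plus strand, ANGPTL8 at chr19:11239369-11239618 on the plus strand, PLIN2 at chr9:19127493-19127742 on the minus strand, PLIN3 at chr19:4867668-4867917 on the minus strand and CIDEB, at the more downstream of its 2 listed starts, at chr14:24307978-24308227 on the minus strand. Capitals mark the matches to the motifs named in the next paragraph.
G0S2: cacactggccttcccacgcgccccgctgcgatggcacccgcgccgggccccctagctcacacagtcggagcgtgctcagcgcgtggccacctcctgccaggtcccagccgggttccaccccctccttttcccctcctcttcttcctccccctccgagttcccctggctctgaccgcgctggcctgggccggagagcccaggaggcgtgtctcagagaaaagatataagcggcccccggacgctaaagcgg
ANGPTL8: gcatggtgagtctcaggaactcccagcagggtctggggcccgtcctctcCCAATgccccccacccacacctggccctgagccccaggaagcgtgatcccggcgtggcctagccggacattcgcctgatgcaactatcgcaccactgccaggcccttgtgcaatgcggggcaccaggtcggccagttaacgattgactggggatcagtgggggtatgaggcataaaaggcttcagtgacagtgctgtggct
PLIN2: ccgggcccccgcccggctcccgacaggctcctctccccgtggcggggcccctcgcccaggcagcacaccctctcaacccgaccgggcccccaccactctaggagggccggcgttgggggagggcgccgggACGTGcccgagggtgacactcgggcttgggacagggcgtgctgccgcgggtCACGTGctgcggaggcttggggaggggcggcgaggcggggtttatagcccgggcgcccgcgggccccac
PLIN3: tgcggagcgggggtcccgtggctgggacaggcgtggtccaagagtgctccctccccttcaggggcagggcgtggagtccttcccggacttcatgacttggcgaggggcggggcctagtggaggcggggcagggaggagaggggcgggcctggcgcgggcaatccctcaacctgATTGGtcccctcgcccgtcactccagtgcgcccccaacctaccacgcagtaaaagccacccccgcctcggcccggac
CIDEB: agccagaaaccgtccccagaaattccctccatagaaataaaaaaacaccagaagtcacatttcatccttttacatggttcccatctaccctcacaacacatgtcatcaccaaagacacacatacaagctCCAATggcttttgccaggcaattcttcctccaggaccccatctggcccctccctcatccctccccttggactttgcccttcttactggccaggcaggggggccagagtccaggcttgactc

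Motifs were searched on both strands. The sterol regulatory element, TCACNCCAC, is known as a site of SREBP binding. The E-box, CACGTG, is a site of basic helix-loop-helix factors. The core of the hypoxia response element, ACGTG, lies inside every E-box of this form, so their matches overlap. The CCAAT box, a general promoter element, and the composite site of C/EBP and ATF proteins, TGATGNAAT, completed the set. PLIN2 held an E-box 69 to 64 bases upstream of its start and another ACGTG 120 to 116 bases upstream. A CCAAT box lay 201 to 197 bases upstream in ANGPTL8, 121 to 117 in CIDEB and, on the opposite strand, 77 to 73 in PLIN3. G0S2 held none of these letters in this window. Sequence was matched for 28 of the 33 listed genes, with 39 starts, some of which overlap, against 35116 starts of all genes. The sterol regulatory element was in 5.13% of the list's starts (CIDEC and PNPLA2) and 0.883% of all starts, the E-box in 7.69% (ELOVL5, LPIN2 and PLIN2) and 6.34%, the CCAAT box in 41% and 32%, ACGTG in 17.9% and 18.5%, and the composite site in 0% and 0.888%. FASN, DGAT1, DGAT2, PNPLA3 and MGLL were not matched.

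KLHL23 itself was at 5.78 and 5.88 in Huh7-shKLHL23, against 7.89 and 7.87 in Huh7-shLuc, in RMA log2 intensity, the scale of all levels here, which can be compared between arrays for a gene but not between genes. It fell by 2.05 (SE 0.27, limma adjusted p = 0.00363). In Hep-3B it was at 7.21 and 6.15 with the KLHL23 hairpin, against 7.81 and 7.84 with the luciferase hairpin, and the difference of -1.14 (SE 0.27) did not pass (limma adjusted p = 0.0833). The Hep-3B knockdown arrays were uneven, at 65.5% of the control mean in replicate 1 and 31.4% in replicate 3, and without replicate 1 the difference was -1.67 and passed (limma adjusted p = 0.000785). Without replicate 3 it was -0.61. Replicates correlated at 0.995 to 0.998, and array medians lay between 4.563 and 4.597. All 8 measured hepatocyte markers were above the array median on every array (7.78 or higher). The 6 adipocyte markers lay between 2.01 and 5.09, with none above the median on every array. Of the 3 macrophage markers 0 were above it on every array, though CD14 reached 6.75 in Huh7-shLuc. Above it on every array were also 2 of 4 fibroblast and stellate markers (COL1A1 and PDGFRB) and 1 of 3 endothelial markers (PECAM1). As a gauge of how intact the RNA was, the 3' minus 5' difference of ACTB probe sets was 0.525 and 0.546 in Huh7-shKLHL23 against 0.873 and 0.833 in Huh7-shLuc, and 0.737 and 0.753 in Hep-3B-shKLHL23 against 0.442 and 0.537 in Hep-3B-shLuc. It moved with the hairpin in opposite directions in the lines. The same gauge from GAPDH was 0.148 and 0.112 in Huh7-shKLHL23, against 0.132 and 0.0887 in Huh7-shLuc, which overlap. In Hep-3B the GAPDH gauge was 0.2225 and 0.236 with the KLHL23 hairpin, against 0.1174 and 0.1198 with the luciferase hairpin. The part of RNA quality in the results was not tested.

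In Huh7, 9 of the 31 genes changed with the KLHL23 hairpin (29%), 2 higher and 7 lower, where 13.5% of all genes changed, 5.75% higher and 7.73% lower (a gene is called changed at a Benjamini-Hochberg adjusted limma p under 0.05 over all 19775 genes). In Hep-3B 2 changed (6.45%), 1 higher and 1 lower, where 0.693% of all genes did, 0.536% higher and 0.157% lower. The list was chosen with earlier results of these data known, so such shares, here and below, describe it and test nothing. Only THRSP, ME1, MGLL and LIPE of the list fell below the array median on any array, while the 19775 genes were not filtered on level. Unadjusted limma p-values lay under 0.05 for 12 of the 31 genes in Huh7 and 15 in Hep-3B, as they did for 27.5% and 17.7% of all genes. CIDEB was the only gene of the list changed in both lines. The median difference was 0.10 in Huh7 and 0.12 in Hep-3B, beside medians over all genes of -0.000315 and 0.02, and 17 of the 31 genes had the same sign in both lines against 60.6% of all genes. The Huh7 count was 2 without either Huh7-shLuc array, 3 without Huh7-shKLHL23 replicate 1 or either Hep-3B-shLuc array, and 7 to 9 without any other array. The Hep-3B count was 12 without Hep-3B-shKLHL23 replicate 1 and 0 without any of the other 7 arrays. The arrays of the groups did not overlap for 24 of the 31 genes in Huh7 and 25 in Hep-3B, where 53.7% and 53% of all genes did not overlap.

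**Figure D1:**
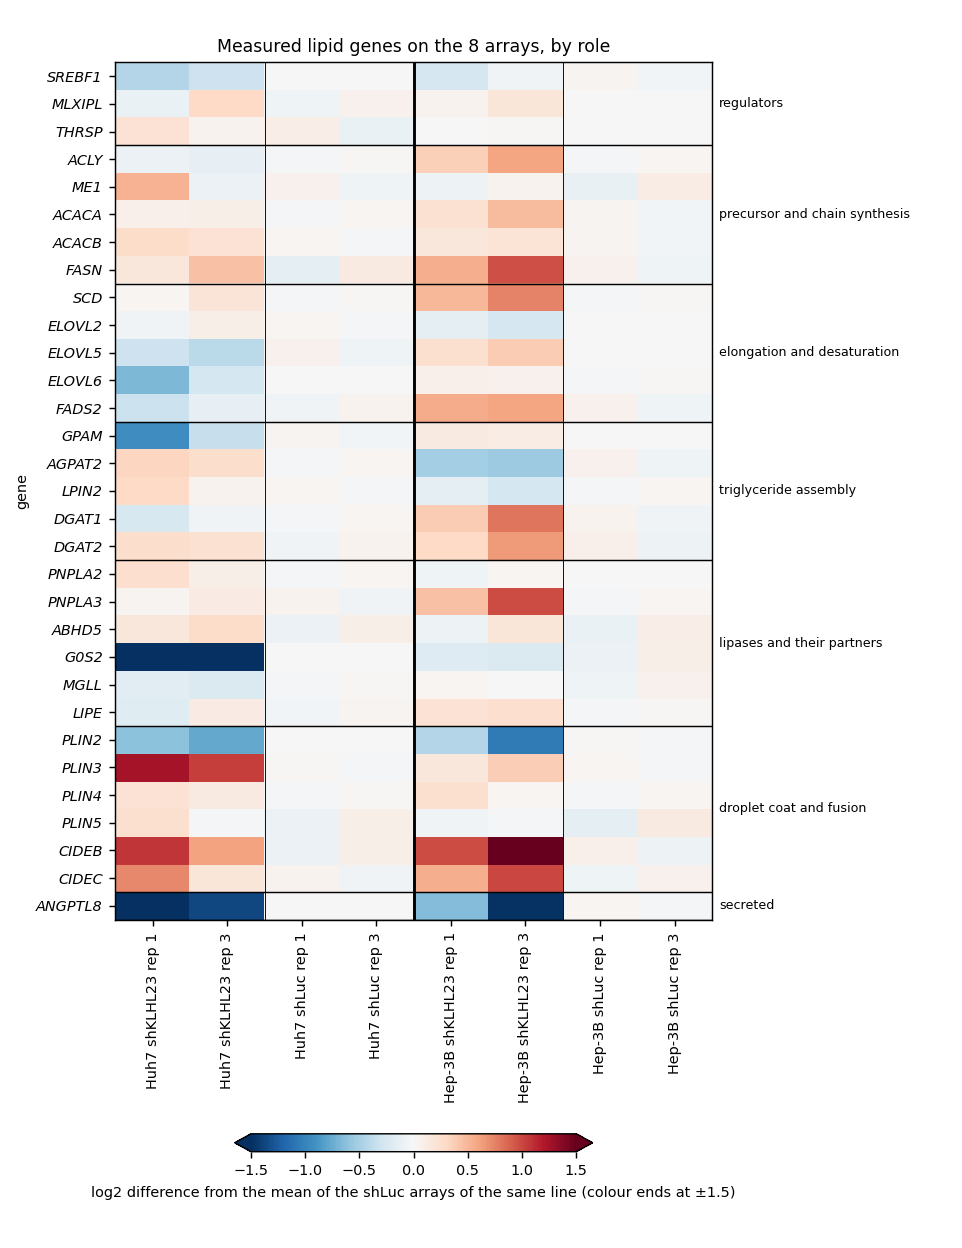
Level of each of the 31 measured genes on each array, as the log2 difference from the mean of the luciferase-hairpin arrays of the same line, with genes grouped by role and arrays in columns (colours end at 1.5 either way). G0S2 and ANGPTL8 are far below 0 on both Huh7-shKLHL23 arrays, and the Hep-3B-shKLHL23 columns are uneven.

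The falls in Huh7 were led by G0S2, a small protein that binds and inhibits the droplet lipase ATGL. G0S2 was at 6.11 and 7.19 in Huh7-shKLHL23, against 9.48 and 9.48 in Huh7-shLuc, so both knockdown arrays lay far below both controls. It fell by 2.83 (SE 0.28, limma adjusted p = 0.00125), which is 7.09-fold lower, and the arrays held 9.71% and 20.5% of the control mean. The fall passed in all 8 fits that each left out 1 array (from -3.36 to -2.29), and the RNA came from whole cultures, in which fewer cells that express a gene and less RNA per cell cannot be told apart. In Hep-3B its levels were 4.70 and 4.67 with the KLHL23 hairpin, against 4.80 and 4.99 with the luciferase hairpin, close to the array median, and the difference of -0.21 (SE 0.28) did not pass (limma adjusted p = 0.769). G0S2 overlaps the antisense gene HSD11B1-AS1 in the annotation.

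The lipase that G0S2 inhibits, ATGL (encoded by PNPLA2), was at 9.74 and 9.57 in Huh7-shKLHL23, against 9.46 and 9.51 in Huh7-shLuc. These groups did not overlap, yet the difference of 0.17 did not pass (limma adjusted p = 0.294). In Hep-3B PNPLA2 was at 9.34 and 9.43 with the KLHL23 hairpin, against 9.41 and 9.40 in Hep-3B-shLuc, a difference of -0.02 (limma adjusted p = 0.942). ABHD5, which activates ATGL, differed by 0.22 in Huh7 and 0.05 in Hep-3B, and did not pass in either. PNPLA3, a lipase-like droplet protein whose variants are known for their link to fatty liver, was at 6.14 and 6.22 in Huh7-shKLHL23, against 6.16 and 6.05 in Huh7-shLuc. Hep-3B-shKLHL23 had it at 5.89 and 6.43, against 5.42 and 5.49 in Hep-3B-shLuc, and the difference of 0.70 did not pass (limma adjusted p = 0.0771). Hormone-sensitive lipase (LIPE) was below the array median on 5 of the 8 arrays and monoacylglycerol lipase (MGLL) on all 8, and neither passed in either line. Of the 6 lipases and partners, 1 changed in Huh7 and 0 in Hep-3B, where 13.5% and 0.693% of all genes did. By unadjusted limma p under 0.05 there was 1 in each line, beside 27.5% and 17.7% of all genes.

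Among the coat and fusion proteins of the droplet, 3 of 6 changed in Huh7 and 1 of 6 in Hep-3B, where 13.5% and 0.693% of all genes did. PLIN3, a perilipin that coats small and nascent droplets, was at 8.93 and 8.72 in Huh7-shKLHL23, against 7.70 and 7.66 in Huh7-shLuc. It rose by 1.14 (SE 0.11, limma adjusted p = 0.00108), or 2.21-fold, and passed without any 1 of the 8 arrays (1.04 to 1.25). The groups did not overlap, as for 53.7% of all genes in Huh7. Hep-3B held PLIN3 at 9.14 and 9.34 with the KLHL23 hairpin, against 8.999 and 8.943 with the luciferase hairpin, and the difference of 0.27 did not pass (limma adjusted p = 0.241).

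PLIN2, the main perilipin of liver droplets, was at 10.66 and 10.51 in Huh7-shKLHL23, against 11.28 and 11.27 in Huh7-shLuc. It fell by 0.69 (SE 0.17, limma adjusted p = 0.0335). That call passed without either Hep-3B-shKLHL23 array but not without any of the other 6 arrays (limma adjusted p = 0.0564 to 0.149). In Hep-3B PLIN2 was at 12.23 and 11.61 with the KLHL23 hairpin, against 12.69 and 12.65 in Hep-3B-shLuc, below both controls on each array, and the difference of -0.75 did not pass (limma adjusted p = 0.0818). Without Hep-3B-shKLHL23 replicate 1 it was -1.06 and passed (limma adjusted p = 0.00439), and without replicate 3 of that group it was -0.44 and did not (limma adjusted p = 0.3005). A dim second probe set of PLIN2 read 0.14 (Huh7) and -0.05 (Hep-3B), and the mean of both probe sets gave -0.28 in Huh7, which did not pass (limma adjusted p = 0.117).

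CIDEB, a liver protein that promotes droplet fusion and the lipidation of very-low-density lipoprotein, was at 8.66 and 8.18 in Huh7-shKLHL23, against 7.49 and 7.67 in Huh7-shLuc. It rose by 0.84 (SE 0.21, limma adjusted p = 0.0338), or 1.79-fold. It stood at 9.16 and 9.78 in Hep-3B-shKLHL23, against 8.26 and 8.11 with the luciferase hairpin, and rose by 1.29 (SE 0.21, limma adjusted p = 0.0428), or 2.44-fold. All 4 knockdown arrays thus lay above the controls of their line, where 53.7% (Huh7) and 53% (Hep-3B) of all genes did not overlap. The Huh7 call did not pass without Huh7-shKLHL23 replicate 1 (0.60), without either Huh7-shLuc array or without either Hep-3B-shLuc array (limma adjusted p = 0.053 to 0.176). The Hep-3B call passed without Hep-3B-shKLHL23 replicate 1 and not without any of the other 7 arrays (limma adjusted p = 0.0583 to 0.28), nor with Hep-3B fitted alone (limma adjusted p = 0.154). The gene overlaps LTB4R2 and NOP9 in the annotation.

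CIDEC, a relative of CIDEB that enlarges droplets, was at 7.15 and 6.61 in Huh7-shKLHL23, against 6.48 and 6.37 in Huh7-shLuc. The Hep-3B-shKLHL23 arrays read 7.34 and 7.79, against 6.72 and 6.85 in Hep-3B-shLuc. The groups did not overlap in either line, but neither the difference of 0.45 in Huh7 nor that of 0.77 in Hep-3B passed (limma adjusted p = 0.172 and 0.093). PLIN4 and PLIN5, perilipins best known from fat and from oxidative tissues, had differences of 0.18 and 0.11 in Huh7 and of 0.14 and -0.04 in Hep-3B, and did not pass.

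ANGPTL8, a secreted inhibitor of lipoprotein lipase that liver releases after feeding, was at 8.31 and 9.53 in Huh7-shKLHL23, against 10.90 and 10.88 in Huh7-shLuc. It fell by 1.97 (SE 0.36, limma adjusted p = 0.0114), or 3.91-fold, and the knockdown arrays, which themselves differed, held 16.8% and 39% of the control mean. The fall did not pass without Huh7-shLuc replicate 1 (limma adjusted p = 0.0748) or replicate 3 (limma adjusted p = 0.0723), nor with an intensity trend and robust eBayes (limma adjusted p = 0.0536). In Hep-3B ANGPTL8 was at 9.33 and 8.50 with the KLHL23 hairpin, against 10.01 and 9.95 in Hep-3B-shLuc, below both controls on each array. That difference of -1.07 (SE 0.36) did not pass (limma adjusted p = 0.177). It was -1.49 without Hep-3B-shKLHL23 replicate 1 and -0.65 without replicate 3, and passed in neither case (limma adjusted p = 0.0921 and 0.718). ANGPTL8 overlaps DOCK6 in the annotation.

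**Figure D2:**
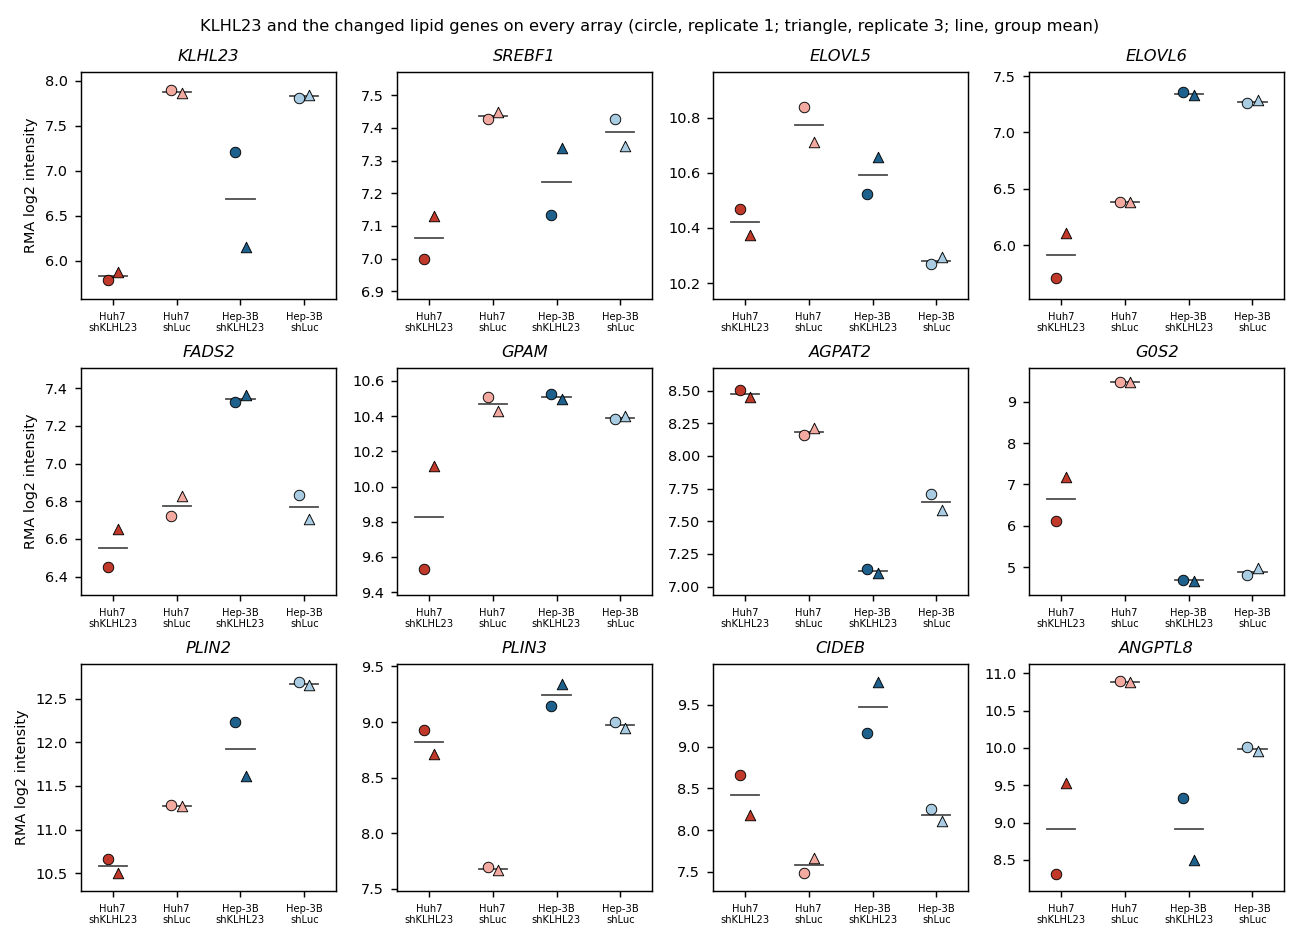
Log2 level on each of the 8 arrays of the genes changed in a line or between lines, 1 panel per gene, with the knockdown group left of its control in each line, circles and triangles for replicates 1 and 3 and lines for group means, beside KLHL23. Apart from KLHL23, G0S2 and ANGPTL8 separate the Huh7 groups most, and CIDEB is higher on all 4 knockdown arrays.

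Among the regulators, SREBF1 was at 6.999 and 7.13 in Huh7-shKLHL23, against 7.43 and 7.45 in Huh7-shLuc, and fell by 0.37 (SE 0.10, limma adjusted p = 0.0469). The call lay at the threshold: it did not pass without Huh7-shKLHL23 replicate 1, without either Huh7-shLuc array or without either Hep-3B-shLuc array (limma adjusted p = 0.0841 to 0.193). Of 11 other settings it passed in 5, and after median centring, for one, it did not (limma adjusted p = 0.0501; up to 0.0817 with each line fitted alone). In Hep-3B it was at 7.13 and 7.34 with the KLHL23 hairpin, against 7.43 and 7.34 in Hep-3B-shLuc, and the difference of -0.15 did not pass (limma adjusted p = 0.509). MLXIPL differed by 0.10 and 0.12 in Huh7 and Hep-3B, and THRSP, a nuclear protein that promotes lipogenesis, by 0.14 and 0.01, with 7 of its 8 arrays below the array median.

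In the steps from citrate to palmitate, 0 of 5 genes changed in either line after adjustment (1 in Huh7 and 3 in Hep-3B at an unadjusted limma p under 0.05). ACLY, which makes cytosolic acetyl-CoA, was at 10.84 and 10.81 in Huh7-shKLHL23, against 10.91 and 10.94 in Huh7-shLuc, a difference of -0.10 (limma adjusted p = 0.586). Hep-3B-shKLHL23 had it at 11.28 and 11.51, against 10.90 and 10.95 in Hep-3B-shLuc, and 0.47 did not pass (limma adjusted p = 0.0728). The carboxylase ACACA was at 9.44 and 9.45 in Huh7-shKLHL23, against 9.34 and 9.39 in Huh7-shLuc, and at 9.17 and 9.42 in Hep-3B-shKLHL23, against 8.98 and 8.90 in Hep-3B-shLuc. Its differences, 0.08 in Huh7 and 0.35 in Hep-3B, missed the threshold (limma adjusted p = 0.691 and 0.128). A dimmer probe set of ACACA fell by 0.58 in Huh7 (limma adjusted p = 0.0117 over all probe sets), against the sign of the brighter one. The other carboxylase, ACACB, which acts at mitochondria, differed by 0.24 and 0.19, and ME1, which supplies NADPH, by 0.22 and -0.01.

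Fatty acid synthase (FASN) was at 8.70 and 8.96 in Huh7-shKLHL23, against 8.39 and 8.67 in Huh7-shLuc, groups that missed each other by a narrow margin. The difference of 0.30 did not pass (limma adjusted p = 0.282). In Hep-3B FASN was at 9.21 and 9.63 with the KLHL23 hairpin, against 8.73 and 8.59 in Hep-3B-shLuc, and the difference of 0.76 (95% CI 0.38 to 1.13) did not pass either (limma adjusted p = 0.0742). Without Hep-3B-shKLHL23 replicate 1 the Hep-3B differences of FASN, ACLY, ACACA and SCD were 0.97, 0.59, 0.48 and 0.75 and passed (limma adjusted p = 0.0243, 0.0228, 0.0455 and 0.0156), resting on a lone knockdown array. The mean of both FASN probe sets gave 0.33 in Hep-3B.

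Among elongases and desaturases 2 of 5 fell in Huh7, where 7.73% of all genes did, and 0 changed in Hep-3B by limma. There 3 had an unadjusted limma p under 0.05, as had 17.7% of all genes. ELOVL5, which lengthens polyunsaturated chains, was at 10.47 and 10.38 in Huh7-shKLHL23, against 10.84 and 10.71 in Huh7-shLuc, and fell by 0.35 (SE 0.10, limma adjusted p = 0.0443). It stood at 10.52 and 10.66 in Hep-3B-shKLHL23, against 10.27 and 10.29 in Hep-3B-shLuc, on the other side of its controls, and 0.31 did not pass (limma adjusted p = 0.144). ELOVL6, which lengthens palmitate to stearate, was at 5.71 and 6.11 in Huh7-shKLHL23, against 6.38 and 6.38 in Huh7-shLuc, and fell by 0.47 (SE 0.13, limma adjusted p = 0.0443). The Hep-3B-shKLHL23 arrays read 7.35 and 7.34, against 7.26 and 7.29 in Hep-3B-shLuc. The ELOVL5 call passed only without either Hep-3B-shKLHL23 array, and that of ELOVL6 only without Huh7-shKLHL23 replicate 3. In the other fits that left out an array, the limma adjusted p was 0.0746 to 0.234 for ELOVL5 and 0.0641 to 0.172 for ELOVL6, whose difference was -0.27 without Huh7-shKLHL23 replicate 1. With each line fitted alone neither passed (limma adjusted p = 0.0998 for ELOVL5 and 0.114 for ELOVL6), nor with each gene's probe sets averaged (limma adjusted p = 0.0691 and 0.191).

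SCD, the desaturase that makes oleate, was at 11.44 and 11.61 in Huh7-shKLHL23, against 11.39 and 11.44 in Huh7-shLuc, a difference of 0.11 (limma adjusted p = 0.589). In Hep-3B it was at 11.38 and 11.63 with the KLHL23 hairpin, against 10.87 and 10.90 in Hep-3B-shLuc, and 0.62 (SE 0.11) missed the threshold (limma adjusted p = 0.0509). Its other probe sets differed in Hep-3B by 0.67, 0.04 and 0.11, and the mean of the SCD probe sets gave 0.36 there. FADS2, the first desaturase of polyunsaturated chains, was at 6.45 and 6.65 in Huh7-shKLHL23, against 6.72 and 6.83 in Huh7-shLuc, below its controls. Hep-3B-shKLHL23 had it at 7.33 and 7.36, against 6.84 and 6.70 in Hep-3B-shLuc, above its controls. Neither the difference of -0.23 in Huh7 nor that of 0.57 in Hep-3B passed (limma adjusted p = 0.206 and 0.0543). ELOVL2 differed by 0.02 and -0.20.

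In triglyceride assembly 1 of 5 genes changed in each line, and not the same one, where 13.5% (Huh7) and 0.693% (Hep-3B) of all genes did. GPAM, the mitochondrial acyltransferase of the first step, was at 9.53 and 10.12 in Huh7-shKLHL23, against 10.51 and 10.43 in Huh7-shLuc, and fell by 0.64 (SE 0.16, limma adjusted p = 0.0356). Its second probe set gave -0.73. It stood at 10.52 and 10.50 in Hep-3B-shKLHL23, against 10.38 and 10.40 in Hep-3B-shLuc, a difference of 0.12. The GPAM call passed without Huh7-shKLHL23 replicate 3 and not without any other array (limma adjusted p = 0.0574 to 0.17), and the difference was -0.35 without Huh7-shKLHL23 replicate 1. It did not pass with each line fitted alone (limma adjusted p = 0.0983).

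AGPAT2, the acyltransferase of the next step, was at 7.14 and 7.11 in Hep-3B-shKLHL23, against 7.71 and 7.58 in Hep-3B-shLuc, and fell by 0.52 (SE 0.09, limma adjusted p = 0.0463). In Huh7 it was at 8.50 and 8.45 with the KLHL23 hairpin, against 8.16 and 8.21 in Huh7-shLuc, on the other side of its controls, and 0.29 did not pass (limma adjusted p = 0.0667). The Hep-3B call passed without Hep-3B-shKLHL23 replicate 1 and not without any other array (limma adjusted p = 0.0626 to 0.309), and a second probe set, at -0.44, did not pass. The fall of AGPAT2 did not pass with each line fitted alone (limma adjusted p = 0.164) or with the mean of its probe sets (limma adjusted p = 0.0639).

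DGAT1 and DGAT2 catalyse the last step of triglyceride synthesis. DGAT2 was at 7.81 and 7.77 in Huh7-shKLHL23, against 7.49 and 7.59 in Huh7-shLuc, and at 9.36 and 9.71 in Hep-3B-shKLHL23, against 9.14 and 8.999 in Hep-3B-shLuc. All 4 knockdown arrays lay above their controls, but the differences, 0.24 in Huh7 and 0.47 in Hep-3B, missed the threshold (limma adjusted p = 0.253 and 0.107). Without Hep-3B-shKLHL23 replicate 1 the Hep-3B difference of DGAT2 was 0.64 and passed (limma adjusted p = 0.0269). DGAT1 was at 9.02 and 9.20 in Huh7-shKLHL23, against 9.23 and 9.30 in Huh7-shLuc, and at 8.33 and 8.76 in Hep-3B-shKLHL23, against 8.004 and 7.91 in Hep-3B-shLuc. Its differences were -0.15 and 0.59, and that in Hep-3B did not pass (limma adjusted p = 0.0861). LPIN2, a phosphatidate phosphatase, differed by 0.17 and -0.19.

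Averaged over both lines, 12 of the 31 genes differed between hairpins (38.7%), 8 higher and 4 lower, where 15.6% of all genes did, 7.6% higher and 8.02% lower. This contrast uses the same arrays as the separate comparisons and is no second observation of them. CIDEB (1.06), PLIN3 (0.71), CIDEC (0.61, limma adjusted p = 0.0197), FASN (0.53, limma adjusted p = 0.0183), PNPLA3 (0.39, limma adjusted p = 0.0468), SCD (0.37, limma adjusted p = 0.0164), DGAT2 (0.36, limma adjusted p = 0.0288) and ACACB (0.22, limma adjusted p = 0.0482) were higher with the KLHL23 hairpin. G0S2 (-1.52), ANGPTL8 (-1.52), PLIN2 (-0.72) and SREBF1 (-0.26, limma adjusted p = 0.0433) were lower. The G0S2 value averages -2.83 in Huh7 and -0.21 in Hep-3B, and that of PLIN3 averages 1.14 in Huh7 and 0.27 in Hep-3B. A dimmer FASN probe set read 0.02 in Huh7 and -0.10 in Hep-3B. A second PNPLA3 probe set read -0.03 in Huh7 and 0.31 in Hep-3B. The other ACACB probe sets lay between -0.21 and 0.16 in Huh7 and between -0.15 and 0.62 in Hep-3B. The count was 5 without Huh7-shLuc replicate 1 or Hep-3B-shLuc replicate 3, 6 without Huh7-shLuc replicate 3, Hep-3B-shLuc replicate 1 or Hep-3B-shKLHL23 replicate 3, and 8 to 13 without the other 3 arrays.

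The knockdown difference itself differed between the lines for 4 of the 31 genes (12.9%), 2 positive and 2 negative, where it did for 1.26% of all genes, 0.445% positive and 0.814% negative. The fall of G0S2 in Huh7 exceeded its Hep-3B difference, at a Huh7 minus Hep-3B value of -2.62 (SE 0.39, limma adjusted p = 0.0278, 95% CI -3.51 to -1.73). In Hep-3B, however, G0S2 lay close to the array median with either hairpin (4.67 to 4.99), which limits how large a fall could show there. The rise of PLIN3 in Huh7 also exceeded its Hep-3B difference (0.87, limma adjusted p = 0.0414), AGPAT2 had a positive difference in Huh7 beside its fall in Hep-3B (0.82, limma adjusted p = 0.0318), and FADS2 had a negative difference in Huh7 and a positive one in Hep-3B (-0.80, limma adjusted p = 0.0452). The count was 0 without any 1 of the 4 shLuc arrays or Hep-3B-shKLHL23 replicate 3, 1 without Huh7-shKLHL23 replicate 1, 3 without Hep-3B-shKLHL23 replicate 1 and 6 without Huh7-shKLHL23 replicate 3. For ANGPTL8 the difference between lines was -0.90 (95% CI -2.07 to 0.28), for CIDEB -0.45 (-1.13 to 0.24), for PLIN2 0.06 (-0.51 to 0.62) and for FASN -0.45 (-0.98 to 0.08), and these did not pass. Their intervals are wide, so the lines were not shown to respond alike. The FADS2 difference was 0.15 and did not pass when probe sets prone to cross-hybridise were left out (limma adjusted p = 0.828). That value came from a dim second probe set, at 3.64 to 4.31 and below the array median on every array, so it says little about FADS2.

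**Figure D3:**
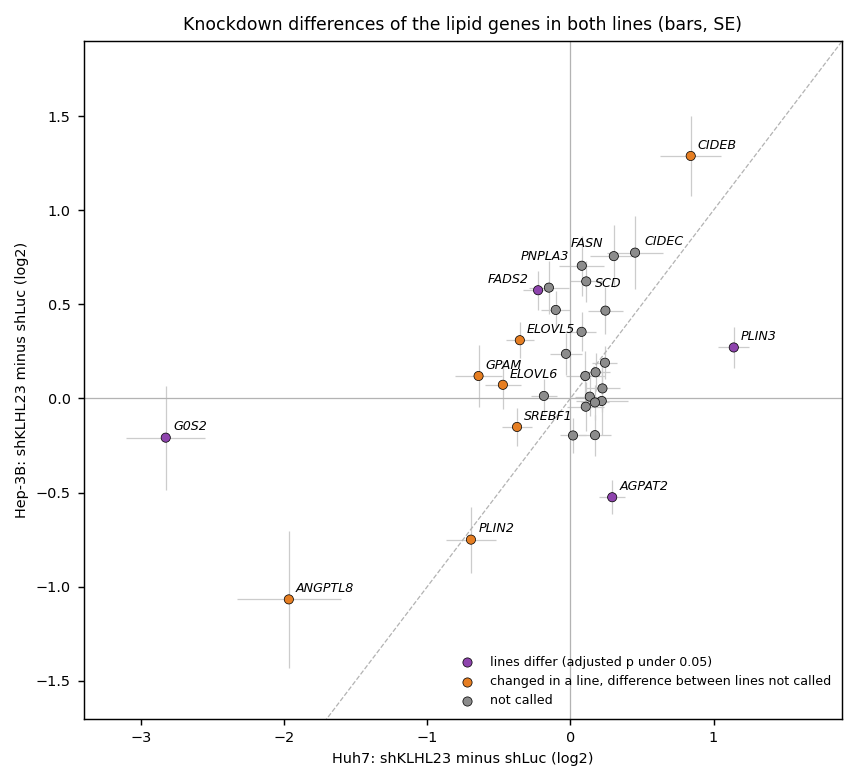
Knockdown minus control difference of each of the 31 genes in Huh7 (horizontal axis, log2) and Hep-3B (vertical axis, log2), with SE bars and the genes where the lines differ in purple and those changed in a line in orange. G0S2 lies far to the left with almost no Hep-3B difference, and CIDEB is positive on both axes.

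The lines also differed with the luciferase hairpin. Between Huh7-shLuc and Hep-3B-shLuc, 15 of the 31 genes differed (48.4%), 8 higher and 7 lower in Huh7, where 32.7% of all genes did, 17.7% higher and 14.9% lower. These control arrays also enter the knockdown differences above. ME1, which makes NADPH for fatty acid synthesis, was at 9.35 and 9.22 in Huh7-shLuc, against 2.73 and 2.95 in Hep-3B-shLuc, where all 4 Hep-3B arrays lay below the array lower quartile. With that quartile as the floor for Hep-3B-shLuc, ME1 was at least 73.3-fold higher in Huh7-shLuc (limma adjusted p = 6.04e-08 for the levels as measured), and a second probe set of ME1 read 8.60 and 8.51 in Huh7-shLuc, against 2.10 and 1.92 in Hep-3B-shLuc.

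G0S2 was higher in Huh7-shLuc than in Hep-3B-shLuc by 4.58 (limma adjusted p = 4.63e-06), or 24-fold. DGAT1 was higher in Huh7 by 1.31, and DGAT2, which catalyses the same reaction, was lower there (-1.53, limma adjusted p = 2.75e-05). PLIN2 (-1.40, limma adjusted p = 0.000331), PLIN3 (-1.29, limma adjusted p = 3.26e-05), ELOVL2 (-0.89), ELOVL6 (-0.89), MLXIPL (-0.53) and ABHD5 (-0.53) were also lower in Huh7. PNPLA3 (0.65), AGPAT2 (0.54), SCD (0.53), ELOVL5 (0.49) and ACACA (0.42) were higher there. For SCD the probe sets disagreed in sign: the others read 0.29, -0.45 (limma adjusted p = 0.0111 over all probe sets) and -0.28. Those of ABHD5 and ELOVL6 disagreed too. The other ABHD5 probe sets read 0.17, 0.20 and -0.01, and those of ELOVL6 read -0.51 and 0.16. The positive values did not pass (limma adjusted p = 0.464 to 0.626 over all probe sets). The dim probe set of PLIN2 read 0.002. Other probe sets of ME1, DGAT2, ELOVL2, PNPLA3, AGPAT2, ELOVL5 and ACACA kept the sign.

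**Figure D4:**
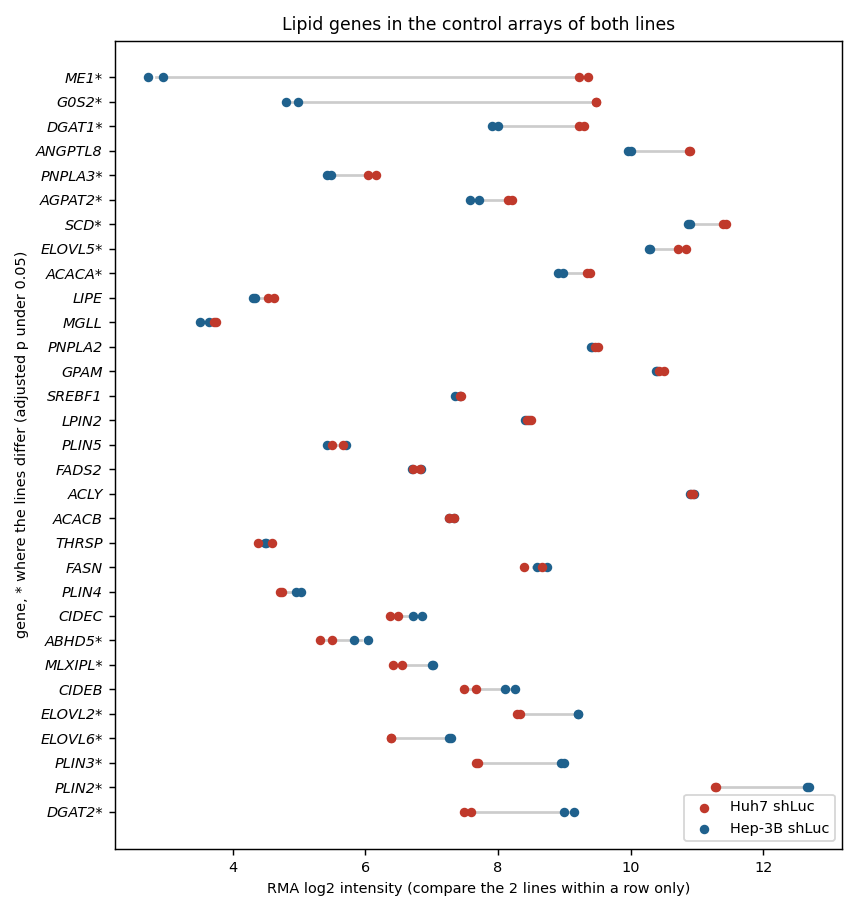
Level of the 31 genes in the control arrays (log2), with a point per array, Huh7-shLuc in red and Hep-3B-shLuc in blue, 1 row per gene and a star where the lines differ. ME1 and G0S2 separate the lines most.

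Beyond the list, 62 of 70 other genes of fatty acid supply, esterification, droplets and their regulators were measured. In Huh7, 11 changed (17.7%, against 13.5% of all genes), 4 higher and 7 lower. MTTP, which loads lipid onto apolipoprotein B, was at 7.49 and 7.85 in Huh7-shKLHL23, against 8.67 and 8.77 in Huh7-shLuc, and fell by 1.05 (SE 0.14, limma adjusted p = 0.00363). PPARGC1B, a coactivator of SREBP and of oxidative genes, was at 5.60 and 5.61 in Huh7-shKLHL23, against 6.66 and 6.52 in Huh7-shLuc, and fell by 0.99 (SE 0.10, limma adjusted p = 0.00123). The acyl-CoA synthetase ACSL5 was at 8.11 and 8.27 in Huh7-shKLHL23, against 9.04 and 9.05 in Huh7-shLuc, and fell by 0.86 (limma adjusted p = 0.00229), and ACSL1, at 9.77 and 9.34 in Huh7-shKLHL23, against 10.42 and 10.28 in Huh7-shLuc, fell by 0.80 (limma adjusted p = 0.0106). Both knockdown arrays lay below both controls for all 4 genes, which were named for their large differences. In Huh7 the arrays of the groups did not overlap for 53.7% of all genes. MTTP, PPARGC1B and ACSL5 passed without any 1 of the 8 arrays, and ACSL1 did not without Huh7-shLuc replicate 1 or 3 (limma adjusted p = 0.0574 and 0.0833). The mean of the probe sets of PPARGC1B gave -0.37. The count of 11 was 3 without either Huh7-shLuc array, 4 without Huh7-shKLHL23 replicate 1 and 7 without either Hep-3B-shLuc array.

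In Hep-3B 2 of these 62 genes changed (3.23%, against 0.693% of all genes). LIPA, the lysosomal lipase, was at 10.68 and 11.10 in Hep-3B-shKLHL23, against 9.81 and 9.81 in Hep-3B-shLuc, and rose by 1.09 (limma adjusted p = 0.0217). The carboxylesterase CES1 was at 10.76 and 11.25 in Hep-3B-shKLHL23, against 9.99 and 9.94 in Hep-3B-shLuc, and rose by 1.04 (limma adjusted p = 0.0396). For both genes each knockdown array lay above both controls, in a line where 53% of all genes did not overlap between the groups. The CES1 call passed without Hep-3B-shKLHL23 replicate 1 and not without any other array (limma adjusted p = 0.0573 to 0.237), and the LIPA call did not pass without either Huh7-shLuc array, either Hep-3B-shLuc array or Hep-3B-shKLHL23 replicate 3 (limma adjusted p = 0.058 to 0.173). With Hep-3B fitted alone neither passed (limma adjusted p = 0.149 for LIPA and 0.156 for CES1), and the mean of the LIPA probe sets gave 0.54 (limma adjusted p = 0.0685). The count was 11 without Hep-3B-shKLHL23 replicate 1, 1 without either Huh7-shKLHL23 array and 0 without any other.

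**Figure D5:**
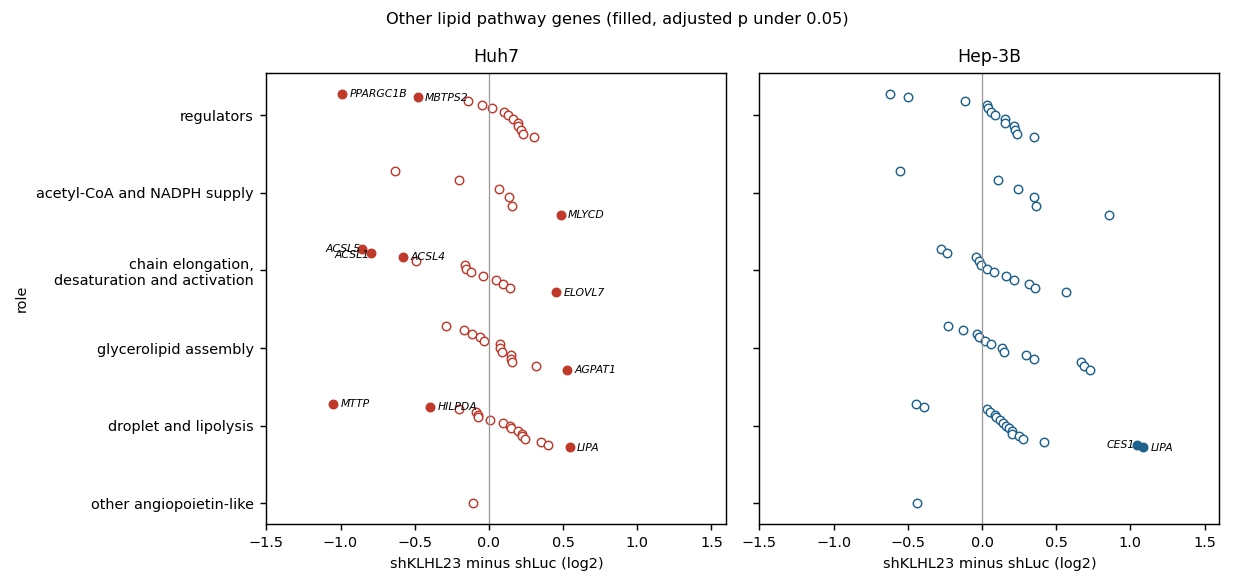
Knockdown minus control difference (log2) in Huh7 and Hep-3B of the other measured lipid genes, by role, with called genes filled. MTTP, PPARGC1B, ACSL5 and ACSL1 lie lowest in Huh7, and LIPA and CES1 highest in Hep-3B.

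Hep-3B knockdown arrays pulled apart for these genes. Replicate 3 lay further from the control mean than replicate 1 for 23 of the 31 genes (74.2%), as it did for 66.4% of all genes. In Huh7 replicate 1 lay further for 20 of the 31 (64.5%), against 55% of all genes. KLHL23 was lowest in Hep-3B-shKLHL23 replicate 3 of the Hep-3B arrays. The Huh7-shKLHL23 arrays had similar KLHL23 levels (5.78 and 5.88), though they also pulled apart for the listed genes. Whether the depth of knockdown goes with the spread between replicates was not tested. Over the 31 genes the SD of the difference between replicates was 0.394 in Huh7-shKLHL23 and 0.108 in Huh7-shLuc, and 0.297 in Hep-3B-shKLHL23 and 0.113 in Hep-3B-shLuc.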

How the data were processed

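Biotin-labelled total RNA of 8 samples was hybridised to Affymetrix arrays. The deposited values are log2 intensities that the authors made with RMA (Affymetrix Expression Console, version 1.2, as named in the submitters' processing notes). RMA forces 1 intensity distribution on all arrays, shrinks differences of dim probe sets and hides changes in total RNA per cell.

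The platform annotation paired 41097 of 54675 probe sets with 1 symbol and 1801 with several, and 11777 were unnamed. Entrez identifiers of 41043 were looked up in RefSeq (GRCh38.p14), and 0 symbols changed. The brightest single-symbol probe set stood for a gene, which gave 19775 genes with no filter on level. In limma 3.58.1 (R 4.3.3) a mean per group was fitted to all 8 arrays, eBayes moderated the spread (4 residual and 4.59 prior degrees of freedom), and the Benjamini-Hochberg adjustment ran over all genes. The number of arrays limits the precision.

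The listed genes, the other lipid genes and the tests were chosen with earlier results of these data known. Genes changed in a line or between lines, or differing by at least 1 log2 unit, are given by array, with KLHL23, SREBF1, FASN, ACACA, ACLY, SCD, DGAT2, PNPLA2, G0S2 and PLIN2 always, and the 4 largest changed other genes per line. Other settings are in the closing section. The code was tested on simulated data.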

Additional observations from a re-analysis of the deposited data

Results flagged for a closer look

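The difference in the knockdown response between Huh7 and Hep-3B passed limma's test for 6 lipid genes, 4 of the list (FADS2 -0.80, AGPAT2 0.82, G0S2 -2.62 and PLIN3 0.87, Huh7 minus Hep-3B on the log2 scale) and 2 of the other lipid genes. Of the other lipid genes, PPARGC1B stood at -1.23 (limma adjusted p = 0.0096) and MTTP at -1.47 (limma adjusted p = 0.0167).

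MTTP was at 7.49 and 7.85 in Huh7-shKLHL23, against 8.67 and 8.77 in Huh7-shLuc, and at 7.58 and 7.85 in Hep-3B-shKLHL23, against 7.32 and 7.28 in Hep-3B-shLuc. It lay below its controls in Huh7 and above them in Hep-3B, where the difference did not pass (0.42, limma adjusted p = 0.164). PPARGC1B was at 5.60 and 5.61 in Huh7-shKLHL23, against 6.66 and 6.52 in Huh7-shLuc, and at 4.47 and 4.61 in Hep-3B-shKLHL23, against 4.32 and 4.29 in Hep-3B-shLuc, close to the array medians. The mean of its probe sets gave -0.42, which did not pass (limma adjusted p = 0.129).

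In the fits that each left out 1 array, all 6 differences kept their sign (PPARGC1B -1.30 to -1.15, G0S2 -3.16 to -2.08). Such a fit has fewer arrays to estimate the spread, so a lost call need not reflect the values of the array left out. None of the 6 calls passed in every such fit. That of FADS2 passed only without Huh7-shKLHL23 replicate 3 and that of PLIN3 likewise (elsewhere limma adjusted p = 0.0756 to 0.203 and 0.0712 to 0.181). AGPAT2 passed without Huh7-shKLHL23 replicate 3 or Hep-3B-shKLHL23 replicate 1 (elsewhere limma adjusted p = 0.0606 to 0.154), and G0S2 without either Huh7-shKLHL23 array (elsewhere limma adjusted p = 0.0597 to 0.145). PPARGC1B did not pass without any 1 of the 4 shLuc arrays (limma adjusted p = 0.0562 to 0.0617). MTTP did not pass without any 1 of them or Hep-3B-shKLHL23 replicate 3 (limma adjusted p = 0.0608 to 0.111).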

How the results depend on the processing

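With 2 arrays per group, counts of called genes moved with the settings while directions mostly held. Of 550 alternative values for 30 differences of 22 genes, 395 kept their direction and their side of the threshold. A further 129 no longer passed, 25 newly passed and 1 reversed. The reversal was the FADS2 difference between lines, then read from a dim second probe set below the array median on every array. It was 0.15 without _x_at and _s_at probe sets, which left 20 of the genes measured. The Huh7 count of listed genes, 9, was 4 without those probe sets, 5 with each line fitted alone and 2 to 9 without 1 array. The Hep-3B count of 2 was 4 after further quantile normalization, with the dimmest 25% of genes left out or over all probe sets, 9 with the dimmest 50% left out, 1 with the mean of probe sets or without _x_at and _s_at probe sets, 12 with an intensity trend and robust eBayes, 10 with array weights, 0 with each line alone and 0 to 12 without 1 array. The count between lines, 4, was 1 without _x_at and _s_at probe sets, 7 with the trend and robust fit and 0 to 6 without 1 array. The count averaged over lines, 12, was 4 without those probe sets and 5 to 13 without 1 array, and that between controls, 15, was 10 to 19 under all settings. Each line alone gives no value for these 3 counts. For the other lipid genes the Huh7 count of 11 was 7 with each line alone and 3 to 12 without 1 array. Their Hep-3B count of 2 was 8 with the dimmest 50% left out, 1 without _x_at and _s_at probe sets, 10 with the trend and robust fit, 6 with array weights, 0 with each line alone and 0 to 11 without 1 array. The median difference in Huh7 was 0.00798 with the mean of probe sets, -0.0435 over all probe sets and 0.0405 to 0.105 without 1 array. In Hep-3B it was 0.0408 without _x_at and _s_at probe sets, 0.257 over all probe sets and 0.109 to 0.184 without 1 array. KLHL23 was at -2.10 to -2.001 in Huh7 and at -1.67 to -0.61 in Hep-3B without 1 array, and its Hep-3B difference of -1.14 passed with array weights (limma adjusted p = 0.0424).

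Arrays of 1 number did not deviate together (correlations of -0.0909 to 0.0889), so the shared replicate numbers were not taken as pairs. With the replicate number as a block the counts were 7 in Huh7, 8 in Hep-3B, 2 between lines and 6 for the other lipid genes in Hep-3B, and KLHL23 in Hep-3B, at -1.14, passed (limma adjusted p = 0.0395). A fit that leaves out an array leaves a lone array in its group, assumed to vary like the others. Low signal limits MGLL, LIPE, THRSP and, in Hep-3B, ME1, and G0S2 lay close to the array median in Hep-3B.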
